A study of Mus musculus with 26 samples.

Results

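The genes of branched-chain amino acid catabolism were followed in brown adipose tissue (BAT) of mice before and after acute cold. The 10 genes were taken as a named list, Bcat1, Bcat2, Bckdha, Bckdhb, Dbt, Bckdk, Ppm1k, Ivd, Mccc1 and Mccc2, out of 50686 genes in the count table, and all 10 were among the 17286 genes with enough reads to be tested. RNA-sequencing had been carried out on 26 male C57BL/6J mice, 12 to 16 weeks old and housed one per cage, which fell into 4 groups. Control littermates (WT in the labels) and fat-specific Afadin knock-out mice (FAKO, labelled KO) spent 2 weeks at thermoneutrality, given as 30 °C in the labels and 29 °C in the methods. Of these, 7 of either genotype were taken at that point, and 5 with the control and 7 with the FAKO label after a further 6 h at 5 °C. FAKO mice carry Adiponectin-Cre and Mllt4 flox/flox, so the deletion is driven in adipocytes and other cells of the tissue keep the gene. The depot is labelled as supraclavicular.

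Leucine, isoleucine and valine are broken down in mitochondria by a shared pathway. The aminotransferases remove the amino group, and the branched-chain ketoacid dehydrogenase (BCKDH) complex then commits the carbon skeletons to oxidation. A kinase switches this complex off by phosphorylation and a phosphatase switches it on again, after which each amino acid follows its own arm. Brown fat is known to take up and oxidise these amino acids when it produces heat.

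With cold, members changed in both directions in either genotype, as did the genes tested at large. Of all genes tested, 31.6% were called higher and 33.4% lower in control mice, and 33.7% and 34.9% in mice labelled FAKO. The cytosolic aminotransferase gene Bcat1 and the BCKDH subunit genes Bckdhb and Dbt rose in control mice and in mice labelled FAKO, while the kinase gene Bckdk and the leucine gene Ivd fell in both. No member passed the test between the 2 labels at either temperature, nor for a difference of the cold responses. All p-values come from edgeR (quasi-likelihood) and were adjusted by the Benjamini-Hochberg method over all 17286 genes, given as the false discovery rate (FDR) with a threshold of 0.05. Levels are CPM, read counts relative to the TMM-scaled library size, and a log2 fold change is given with its standard error (SE).

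Total counts per mouse ran from 12705969 to 25732258. Genes of the mitochondrial genome took 14.3% to 40.5% of them. Their median share at thermoneutrality was 37.2% in control mice and 28.3% in mice labelled FAKO, with median TMM factors of 0.99 and 1.17. After cold the median shares were 27.6% and 28.0%, and the factors 0.95 and 0.94. Ucp1, the uncoupling protein of brown adipocytes, ran from 551 to 1292 CPM in the 14 mice at thermoneutrality and from 13014 to 20990.1 CPM in the 12 mice at 5 °C. Afdn, the targeted gene, ran from 151 to 214 CPM in control mice and from 154 to 231 CPM in mice labelled FAKO at thermoneutrality, so the knock-out is not visible there in whole-tissue RNA. After cold it ran from 67.9 to 79.2 and from 53.3 to 65.3 CPM (log2 fold change -0.33, SE 0.09, FDR 0.116). The groups are therefore named by their labels. Protein is not part of these data. The paper compared Afadin protein between the genotypes at thermoneutrality and reports that its rise with cold was smaller in FAKO mice. Summed skeletal muscle markers ran from 1.24 to 7550 CPM between mice. Over all genes tested, mice 7 (control, thermoneutrality), 24 and 27 (both labelled FAKO, 5 °C) lay farthest from their groups. The measure was the median absolute difference of log2 CPM from the group median. Their muscle marker sums were 5522, 3786 and 3.49 CPM, and the mouse at 7550 CPM was mouse 25, labelled FAKO. In whole tissue, fewer cells of a type and less RNA per cell cannot be told apart.

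The promoters of members that passed the test with cold in both genotypes are shown for reference, and their part in the changes was not tested. RefSeq (GRCm38.p6) gave a promoter for 4 of these 5 members and none for Dbt. For Bcat1 and Bckdhb it gave 1 more each, which is not shown. Each sequence is the 250 bases upstream of the start, 5′ to 3′ on the gene's own strand. Capitals mark the 1 match to any of the 3 motifs searched.
Bcat1 (rose), chr6:145076158-145076407, minus strand: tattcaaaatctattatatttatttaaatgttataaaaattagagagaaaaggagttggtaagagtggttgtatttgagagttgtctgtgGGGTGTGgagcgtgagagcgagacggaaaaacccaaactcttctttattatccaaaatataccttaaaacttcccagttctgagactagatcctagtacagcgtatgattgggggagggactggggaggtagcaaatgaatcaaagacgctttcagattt
Bckdhb (rose), chr9:83924887-83925136, plus strand: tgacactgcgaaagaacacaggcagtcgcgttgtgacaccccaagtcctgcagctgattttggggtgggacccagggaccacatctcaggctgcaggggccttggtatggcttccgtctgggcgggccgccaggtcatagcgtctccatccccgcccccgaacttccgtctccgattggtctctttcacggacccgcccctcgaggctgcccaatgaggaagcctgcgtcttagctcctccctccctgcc
Bckdk (fell), chr7:127903823-127904072, plus strand: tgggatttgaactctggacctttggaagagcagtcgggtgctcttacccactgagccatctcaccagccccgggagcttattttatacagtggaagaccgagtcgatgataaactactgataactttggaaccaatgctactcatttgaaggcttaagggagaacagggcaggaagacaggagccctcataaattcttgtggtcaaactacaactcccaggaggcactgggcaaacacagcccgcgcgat
Ivd (fell), chr2:118861744-118861993, plus strand: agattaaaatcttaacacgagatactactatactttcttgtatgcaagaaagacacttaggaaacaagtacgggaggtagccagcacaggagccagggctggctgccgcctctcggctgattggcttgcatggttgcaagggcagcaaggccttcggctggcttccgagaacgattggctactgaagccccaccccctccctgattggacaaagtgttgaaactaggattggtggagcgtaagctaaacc

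The motifs were AAGGTCA (a site bound by nuclear receptors), TGACGTCA (the cAMP response element) and CACACCC (the box bound by factors of the KLF type), each searched on both strands from 250 bases before to 50 bases after the start. AAGGTCA and TGACGTCA both end in GTCA. Of the 12 promoters that the table holds for 9 members, 1 held a match, CACACCC at position -160 of Bcat1, which reads GGGTGTG on the strand shown. Of all 32851 promoters, 4.72% held AAGGTCA, 1.79% TGACGTCA and 7.95% CACACCC. The absence of these letters says nothing of the factors.

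In control mice, cold raised 3 of the 10 members and lowered 5, and 2 did not pass the test. Over all genes tested, 31.6% were called higher and 33.4% lower, so a call was common and the members' count lay near that share for higher genes and above it for lower ones. The median log2 fold change of the members was -0.28 against -0.01 over all genes. In mice labelled FAKO, 3 members rose, 3 fell and 4 did not pass. There 33.7% of all genes were called higher and 34.9% lower, and the medians were -0.12 and -0.03. The same 5 members passed in the same direction in both genotypes, 4 passed in 1 genotype only, and Mccc1 passed in neither. The share of all genes called in both genotypes was not counted, so these counts are a description only. Nor was the share of all genes whose groups before and after cold did not overlap, so the separations given below are a description too. Without mice 7, 24 and 27, 3 members rose and 5 fell in control mice, and 3 rose and 4 fell in mice labelled FAKO. The 4 endothelial markers summed to 390.5 to 577 CPM at thermoneutrality and 576 to 783 CPM at 5 °C and their part in the changes was not tested.

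**Figure D1:**
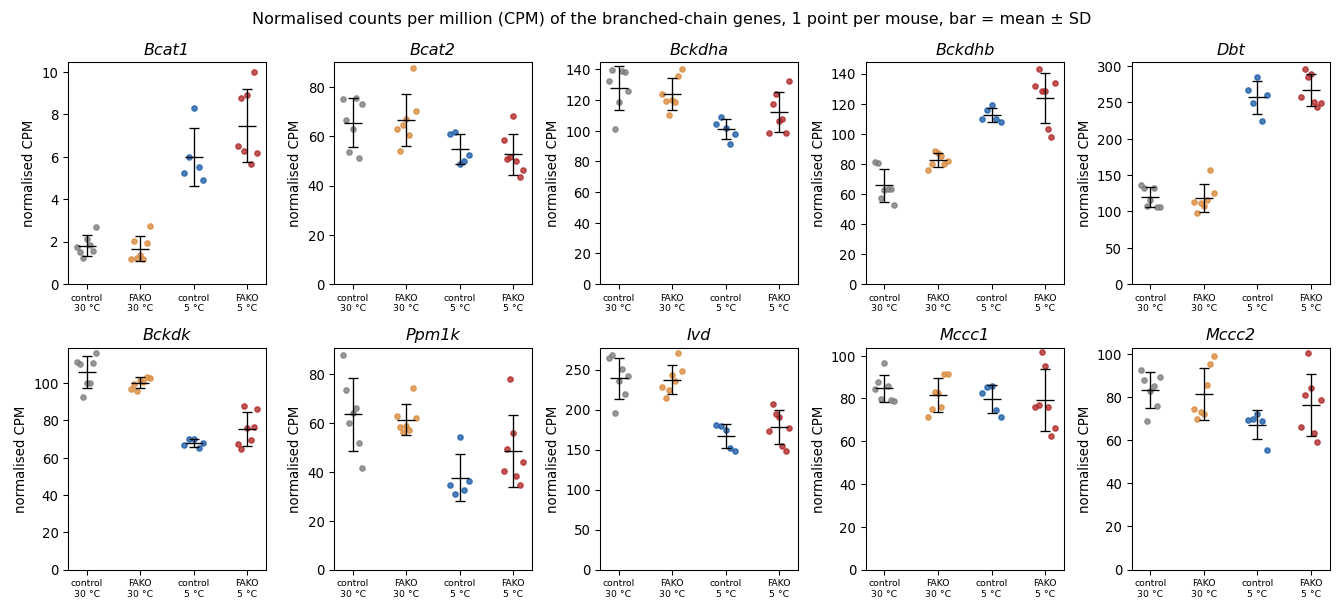
Normalised CPM (y axis, from 0) of each of the 10 genes in the 4 groups (x axis), with 1 point per mouse and a bar at the mean ± SD. Bcat1, Bckdhb and Dbt lie higher at 5 °C in every mouse than in any mouse of the same genotype at 30 °C, and Bckdk and Ivd lie lower. The share of all genes separated in this way was not counted.

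The aminotransferases start the pathway. Bcat1 (ENSMUSG00000030268.17, chromosome 6, 144993835 to 145076184) encodes the cytosolic enzyme. Its level in the 7 control mice at thermoneutrality ran from 1.22 to 2.71 CPM (median 1.74), and in the 5 control mice after cold it was 5.22, 5.99, 8.32, 5.51 and 4.90 CPM. Bcat1 in mice labelled FAKO ran from 1.17 to 2.75 CPM (median 1.36) before and from 5.67 to 10.0 CPM (median 6.50) after cold. The groups before and after cold did not overlap in either genotype. The rise was 1.72 in log2 units (SE 0.21, FDR 8.3e-08), or 3.29-fold, in control mice and 2.16 (SE 0.20, FDR 3.61e-10), or 4.48-fold, in mice labelled FAKO. Bcat1 had the fewest reads of the members, 21 to 59 counts per mouse before cold and 84 to 194 after it, so its values carry the most counting error.

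Bcat2 (ENSMUSG00000030826.19, chromosome 7, 45570153 to 45589711) encodes the mitochondrial aminotransferase. It ran from 51.2 to 75.7 CPM (median 66.7) in control mice at thermoneutrality, and after cold it was 61.1, 61.9, 48.8, 49.9 and 52.4 CPM. Bcat2 in mice labelled FAKO ran from 54.0 to 87.9 CPM (median 64.4) before and from 43.4 to 68.1 CPM (median 50.7) after cold. The cold mice lay in the lower part of the range and overlapped the others in both genotypes. The log2 fold change was -0.34 in mice labelled FAKO (SE 0.11, FDR 0.00715). In control mice it was -0.26 (SE 0.12, FDR 0.061), which missed the threshold narrowly. Leaving out each of the 26 mice in turn gave FDR from 0.0219 to 0.145. The decrease passed without mouse 3, 6, 8, 9, 12, 13, 14, 16, 17 or 25, each alone, with FDR between 0.0219 and 0.0466. Of these, mice 8, 9, 12, 13, 14 and 25 are labelled FAKO. They enter the comparison of control mice only through the filter, the scaling and the shared estimate of the spread.

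Set side by side per kilobase of merged exons, Bcat1 made up 1.14% ± 0.24 (SD, n = 7) of the summed aminotransferase level in control mice at thermoneutrality and 4.43% ± 1.29 (SD, n = 5) after cold. In mice labelled FAKO the share was 1.04% ± 0.37 (SD, n = 7) and 5.69% ± 1.57 (SD, n = 7). Bcat2 thus remained the main aminotransferase transcript in every mouse. The shares rest on the length used. Per kilobase of the transcript with the longest coding sequence, Bcat1 and Bcat2 in control mice were at 0.23 and 37.0 CPM at thermoneutrality. After cold they were at 0.76 and 30.95 CPM, so the share of Bcat1 would be smaller. The log2 ratio of Bcat2 to Bcat1 CPM within a mouse depends on the lengths of the genes, while its change between groups does not. It went from 5.12 ± 0.28 to 3.19 ± 0.39 in control mice and from 5.29 ± 0.44 to 2.81 ± 0.38 in mice labelled FAKO (means ± SD, described without a test).

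**Figure D2:**
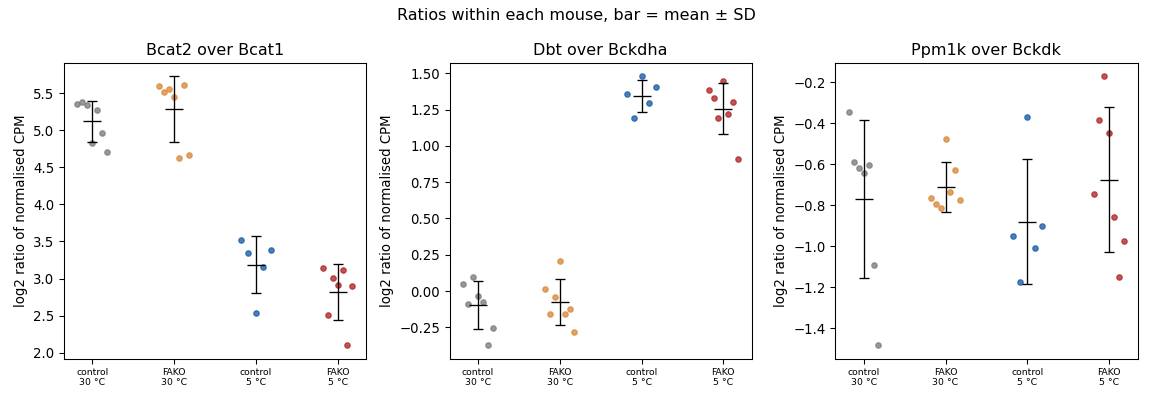
Log2 ratios of normalised CPM within each mouse (y axis) for 3 pairs of genes in the 4 groups (x axis), with 1 point per mouse and a bar at the mean ± SD. The ratio of Bcat2 to Bcat1 is lower and that of Dbt to Bckdha higher in every mouse at 5 °C, whereas that of Ppm1k to Bckdk overlaps between all groups.

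The BCKDH complex is built from the E1 subunits encoded by Bckdha and Bckdhb, the E2 core encoded by Dbt and the E3 subunit encoded by Dld, which other dehydrogenases share. Dbt (ENSMUSG00000000340.10, chromosome 3, 116513070 to 116549981) ran from 105 to 137 CPM (median 116) in control mice at thermoneutrality. After cold it was 268, 249, 285, 224 and 259.9 CPM. Dbt in mice labelled FAKO ran from 98.3 to 157 CPM (median 113) before and from 244 to 295 CPM (median 257) after cold. No mouse at 5 °C came near the range at thermoneutrality. Dbt rose by 1.11 in log2 units (SE 0.09, FDR 6.65e-11) in control mice and by 1.18 (SE 0.09, FDR 4.16e-12) in mice labelled FAKO, or 2.15-fold and 2.26-fold.

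Bckdhb (ENSMUSG00000032263.14, chromosome 9, 83925145 to 84124240), the E1 beta subunit, ran from 52.6 to 81.0 CPM (median 63.0) in control mice at thermoneutrality, and after cold it was 110.0, 116, 119, 109.5 and 108 CPM. Bckdhb in mice labelled FAKO ran from 75.7 to 88.2 CPM (median 82.0) before and from 97.6 to 143 CPM (median 129) after cold. The groups before and after cold did not overlap in either genotype. The rise was 0.78 in log2 units (SE 0.10, FDR 6.95e-08) in control mice and 0.58 (SE 0.09, FDR 1.8e-06) in mice labelled FAKO. The rise in control mice was 1.71-fold.

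Bckdha (ENSMUSG00000060376.7, chromosome 7, 25629946 to 25658981), the E1 alpha subunit, did not rise with its partners. It ran from 101 to 139.9 CPM (median 132) in control mice at thermoneutrality, and after cold it was 105, 109, 102, 91.6 and 98.1 CPM. Bckdha in mice labelled FAKO ran from 110.1 to 140.2 CPM (median 120.1) before and from 98.4 to 133 CPM (median 107) after cold. It fell by 0.34 in log2 units in control mice (SE 0.08, FDR 0.000904). In mice labelled FAKO the log2 fold change was -0.15 (SE 0.08, FDR 0.0908), and without mouse 7, 9, 12 or 28, each left out alone, it passed with FDR between 0.0276 and 0.0443. Without any other single mouse it did not pass, with FDR up to 0.19. Of the exons of Bckdha, 61.7% (1171 bases) lie over exons of B3gnt8 on the other strand, which ran from 2.03 to 5.39 CPM, and the strand setting of the counting is not given in the sources used here.

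Within a mouse, the log2 ratio of Dbt to Bckdha was -0.10 ± 0.17 (SD, n = 7) in control mice at thermoneutrality and 1.34 ± 0.11 (SD, n = 5) after cold. In mice labelled FAKO it was -0.08 ± 0.16 and 1.26 ± 0.17 (SD, n = 7 each). Per kilobase of merged exons, Bckdha was the highest of the members in both groups at thermoneutrality, at 67.3 ± 7.5 CPM per kb in control mice, with Dbt at 35.7 ± 4.1. After cold Dbt was the highest at 76.8 ± 6.7 CPM per kb in control mice, followed by Bckdhb at 62.3 ± 2.6 and Bckdha at 53.2 ± 3.4. This order rests on the length used, since Bckdha would be at 139 CPM per kb after cold, above Dbt, if exons shared with B3gnt8 were not counted. Dld rose like Dbt and Bckdhb, by 0.62 in log2 units (SE 0.08, FDR 1.96e-07) in control mice and by 0.74 (SE 0.08, FDR 1.88e-09) in mice labelled FAKO.

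**Figure D3:**
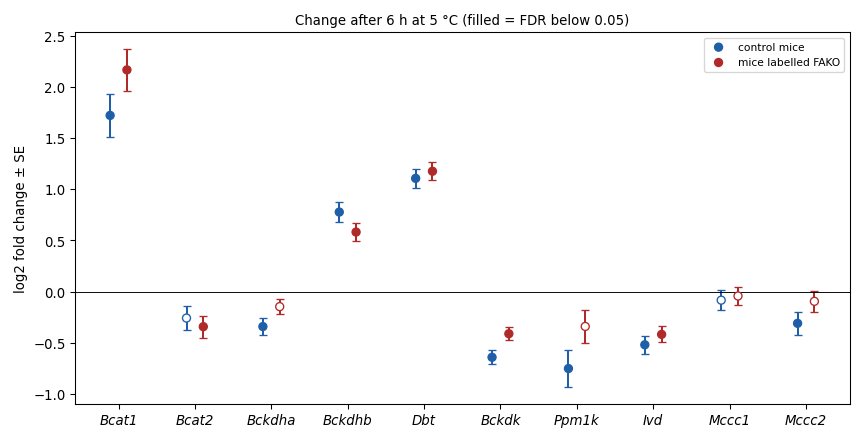
Log2 fold change with cold ± SE (y axis) of each gene (x axis) in control mice (blue) and in mice labelled FAKO (red), with filled points below an FDR of 0.05. Bcat1, Bckdhb and Dbt lie above 0 in both genotypes and all other genes below it.

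The kinase and the phosphatase act on the complex in opposite ways, and the levels of both genes were lower after cold in control mice. Bckdk (ENSMUSG00000030802.14, chromosome 7, 127904082 to 127910221), the kinase that inactivates BCKDH, ran from 92.4 to 116 CPM (median 110.5) in control mice at thermoneutrality. After cold it was 66.5, 70.1, 70.0, 65.3 and 67.7 CPM. Bckdk in mice labelled FAKO ran from 95.7 to 103 CPM (median 101) before and from 64.6 to 87.8 CPM (median 75.9) after cold. The groups before and after cold did not overlap in either genotype. Bckdk fell by 0.64 in log2 units (SE 0.07, FDR 7.3e-09) in control mice and by 0.41 (SE 0.06, FDR 1.89e-06) in mice labelled FAKO.

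Ppm1k (ENSMUSG00000037826.5, chromosome 6, 57506502 to 57535468), the phosphatase that activates BCKDH, varied more between mice. It ran from 41.5 to 87.7 CPM (median 64.1) in control mice at thermoneutrality, and after cold it was 34.4, 31.0, 54.2, 32.4 and 36.2 CPM. Ppm1k in mice labelled FAKO ran from 56.3 to 74.4 CPM (median 58.7) before and from 34.5 to 78.1 CPM (median 43.8) after cold. The groups overlapped in both genotypes, through the control mouse at 54.2 CPM and mouse 24, labelled FAKO, at 78.1 CPM. Ppm1k fell by 0.75 in log2 units in control mice (SE 0.18, FDR 0.000665). In mice labelled FAKO the log2 fold change was -0.34 (SE 0.16, FDR 0.0631). Without mouse 24, one of the 3 that lay far from their groups, it was -0.50 (FDR 0.00376), and without mouse 7, 9, 12, 18 or 25, each alone, the FDR was between 0.0303 and 0.0485. Without any other single mouse it did not pass, with FDR up to 0.14.

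The log2 ratio of Ppm1k to Bckdk was -0.77 ± 0.39 in control mice at thermoneutrality and -0.88 ± 0.30 after cold. In mice labelled FAKO it was -0.71 ± 0.12 and -0.68 ± 0.35 (means ± SD). These ranges overlapped throughout. The ratio of Dbt to Bckdk, in contrast, went from 0.17 ± 0.19 to 1.91 ± 0.11 in control mice and from 0.23 ± 0.19 to 1.83 ± 0.22 in mice labelled FAKO, with no overlap between temperatures.

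The leucine arm follows with isovaleryl-CoA dehydrogenase, encoded by Ivd, and methylcrotonyl-CoA carboxylase, encoded by Mccc1 and Mccc2. Ivd (ENSMUSG00000027332.11, chromosome 2, 118861954 to 118882909) ran from 195 to 268 CPM (median 242) in control mice at thermoneutrality, and after cold it was 181, 179, 175, 152 and 149 CPM. Ivd in mice labelled FAKO ran from 214 to 271 CPM (median 236) before and from 148 to 207 CPM (median 177) after cold. No cold mouse reached the lowest mouse of its genotype at thermoneutrality. Ivd fell by 0.52 in log2 units (SE 0.09, FDR 8.46e-06) in control mice and by 0.42 (SE 0.08, FDR 3.67e-05) in mice labelled FAKO.

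Mccc2 (ENSMUSG00000021646.8, chromosome 13, 99948530 to 100015639), the beta subunit of the carboxylase, ran from 68.7 to 92.3 CPM (median 85.1) in control mice at thermoneutrality, and after cold it was 69.4, 69.7, 72.3, 68.7 and 55.2 CPM. Mccc2 in mice labelled FAKO ran from 69.7 to 99.0 CPM (median 74.4) before and from 59.3 to 100.5 CPM (median 78.6) after cold. The ranges overlapped in both genotypes. The log2 fold change was -0.31 in control mice (SE 0.11, FDR 0.0205) and -0.09 in mice labelled FAKO (SE 0.10, FDR 0.427). The call in control mice was lost without mouse 21, the lowest of the cold mice, when the value was -0.25 (FDR 0.077).

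Mccc1 (ENSMUSG00000027709.9, chromosome 3, 35959312 to 36000678), the biotin-carrying alpha subunit, did not pass the test in either genotype. It ran from 78.8 to 96.4 CPM (median 84.5) in control mice at thermoneutrality, and after cold it was 82.7, 85.3, 85.6, 74.5 and 71.3 CPM. Mccc1 in mice labelled FAKO ran from 71.5 to 91.5 CPM (median 82.5) before and from 62.6 to 102 CPM (median 76.1) after cold. The log2 fold changes were -0.08 (95% interval -0.28 to 0.12, FDR 0.464) and -0.04 (-0.22 to 0.14, FDR 0.68).

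**Figure D4:**
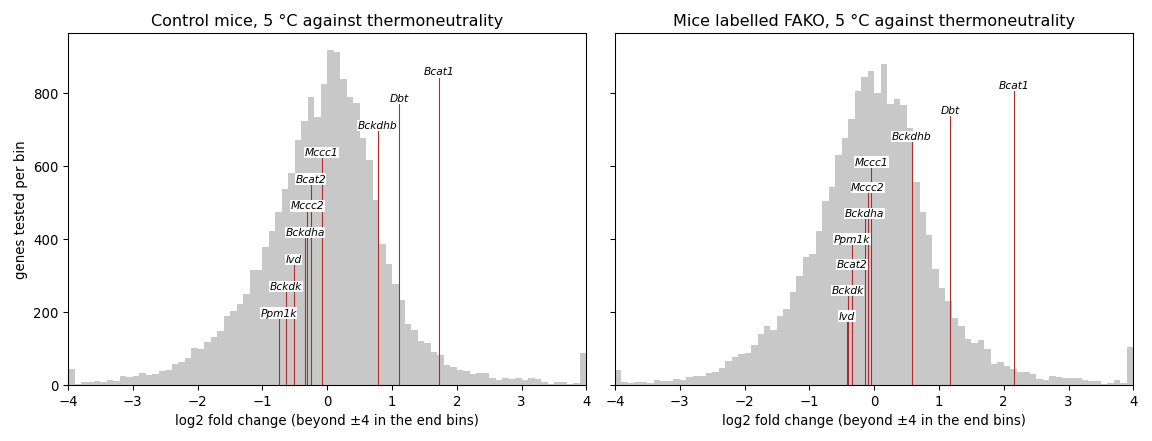
Number of genes tested (y axis) by log2 fold change with cold (x axis) in control mice (left) and in mice labelled FAKO (right), with red lines at the 10 genes. Bcat1 lies above 96.5% of all genes in control mice and above 97.5% in mice labelled FAKO, and Dbt above 91.4% in each.

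The rest of the pathway was described by a list of 21 genes. With cold in control mice, 3 of the 21 rose and 9 fell, and in mice labelled FAKO 5 rose and 6 fell, with medians of -0.14 and 0.04 in log2 units. Of all genes tested, 31.6% rose and 33.4% fell in control mice, and 33.7% rose and 34.9% fell in mice labelled FAKO. With library size alone the counts in mice labelled FAKO were 2 higher and 15 lower. The 3 that rose in control mice were Klf15, a transcription factor of amino acid metabolism, Dld and Btd, which recycles biotin. Klf15 rose by 1.12 (SE 0.21, FDR 3.98e-05) and 1.42 (SE 0.20, FDR 4.28e-07) in log2 units in control mice and mice labelled FAKO, and Btd by 0.41 (SE 0.10, FDR 0.000568) and 0.52 (SE 0.09, FDR 1.05e-05). The largest decreases in control mice were those of Hlcs, which attaches biotin to the carboxylases, Mmab, of cobalamin metabolism, and Acad8, of the valine arm. Hlcs fell by 1.76 (SE 0.16, FDR 2.22e-10) and 1.43 (SE 0.14, FDR 8.54e-10), Mmab by 0.94 (SE 0.11, FDR 2.71e-08) and 0.77 (SE 0.10, FDR 1.04e-07), and Acad8 by 0.75 (SE 0.07, FDR 2.79e-10) and 0.66 (SE 0.06, FDR 4.16e-10).

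Slc25a44, the carrier that brings these amino acids into mitochondria, ran from 85.6 to 119 CPM in control mice at thermoneutrality and from 100.4 to 121 CPM after cold. Slc25a44 in mice labelled FAKO ran from 80.6 to 98.3 CPM before and from 100.3 to 139.6 CPM after cold, without overlap. It rose by 0.52 in log2 units (SE 0.07, FDR 5.01e-07) in mice labelled FAKO. In control mice the log2 fold change was 0.12 (SE 0.08, FDR 0.173). The difference of these responses was 0.39 (SE 0.11, FDR 0.0652), which did not pass the test.

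The label was compared at each temperature to ask whether the adipocyte deletion of Afadin changed the pathway. At thermoneutrality, 0 of the 10 members were called by edgeR or by DESeq2, and 1 had an unadjusted p under 0.05. Few genes were called at all, 0.0579% of those tested as higher and 0.0231% as lower. The member was Bckdhb, higher in all 7 mice labelled FAKO than the mean of the control mice and above every control mouse in 4 of them. Its log2 fold change was 0.33 (SE 0.09, FDR 0.224). Its lowest control, at 52.6 CPM, was mouse 7, which stood apart in muscle markers (5522 CPM), mitochondrial share (14.3%) and TMM factor (1.29). The medians of control mice at thermoneutrality were 63.5 CPM, 37.2% and 0.99. Without mouse 7 the log2 fold change was 0.31 (FDR 0.112), and leaving out each mouse in turn kept it between 0.30 and 0.39. It was 0.34 (FDR 0.183) with the muscle markers as a covariate. With library size alone Bckdhb passed the test, at 0.49 (FDR 0.0298). The 95% intervals of the other 9 members lay within -0.56 and 0.31.

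After cold, 0 members were called by edgeR or by DESeq2, with 1 at an unadjusted p under 0.05, while 0.0463% of all genes were called higher and 0.0926% lower. The median of the members was 0.14 in log2 units, against 0.02 over all genes. The member with the low unadjusted p was Bckdk, with a log2 fold change of 0.15 (95% interval 0.01 to 0.29, FDR 0.342). Larger values whose intervals held 0 were those of Ppm1k, 0.36 (-0.0035 to 0.73, FDR 0.378), and Bcat1, 0.32 (-0.10 to 0.74, FDR 0.511). The groups of every member overlapped between the labels at both temperatures, and without mice 7, 24 and 27 still 0 members were called at either. The share of all genes whose groups overlapped was not counted, so whether the overlap is particular to the members is not known. Summed blood markers ran from 390.2 to 642 CPM in control mice and from 482 to 1393 CPM in mice labelled FAKO after cold, and their part in these values was not tested.

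**Figure D5:**
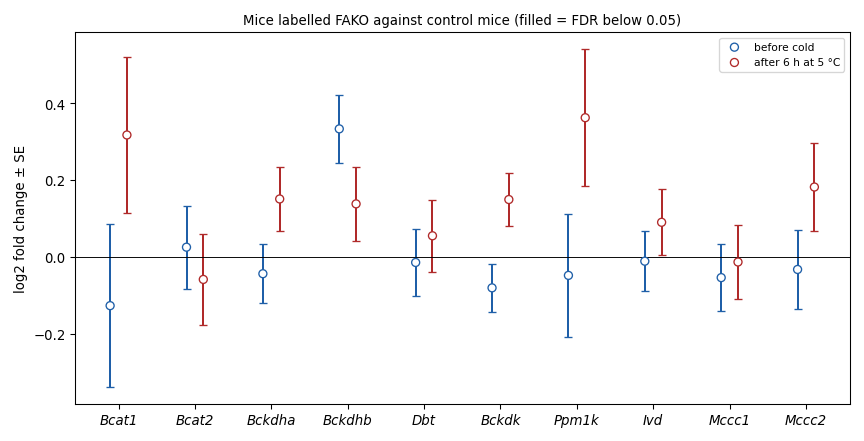
Log2 fold change ± SE of mice labelled FAKO against control mice (y axis) for each gene (x axis), before cold (blue) and after 6 h at 5 °C (red). No point is filled, since none had an FDR below 0.05, and Bckdhb before cold is the farthest from 0 in units of its SE.

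The difference of the cold responses, that in mice labelled FAKO minus that in control mice, was called for 0 members by edgeR or by DESeq2, with 1 at an unadjusted p under 0.05. Of all genes, 0.289% were called higher and 0.868% lower. That member was Bckdk, whose decrease was smaller in mice labelled FAKO by 0.23 in log2 units (95% interval 0.04 to 0.42, FDR 0.215). The decreases of Ppm1k and Bckdha, which passed in control mice and not in mice labelled FAKO, differed by 0.41 (-0.08 to 0.90, FDR 0.405) and 0.19 (-0.04 to 0.43, FDR 0.405), so neither was shown to differ between genotypes. For Dbt the difference was 0.07 (-0.19 to 0.33, FDR 0.832). Among the 21 other genes of the pathway, 0 were called by edgeR for the label or the difference, with 2, 2 and 4 at an unadjusted p under 0.05 before cold, after cold and for the difference. DESeq2 called 1 of them, higher, for the difference. Of the 21, 2 lay above 0 before cold, 19 after cold and 20 for the difference. Of the 10 members, 2, 8 and 8 did, and of all genes 44%, 54.8% and 56.7%. The median difference was 0.17 in log2 units for the 21, 0.15 for the members and 0.04 over all genes. This lean to 1 side was not tested, and the genes share the same mice. Signs also depend on the processing. With library size alone the median difference over all genes was -0.15. Under the alternatives other than leaving out 1 mouse, the lowest values of Dbt, Ivd and Mccc1 were -0.14, -0.09 and -0.17. Those of Bcat1, Bckdha, Bckdk, Ppm1k and Mccc2 stayed above 0.

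The deviation of log2 CPM from the group mean was compared between members over the 26 mice, which share library depth and tissue composition, so the correlations are given as a description. Of the pairs of members, Ivd and Mccc2 had the highest Pearson r (0.81), followed by Dbt and Ivd (0.75), and Bcat1 and Bckdhb the lowest (-0.15). The median over the 45 pairs was 0.44, and 18 pairs had an r below 0.3. Bcat1 with the other members ran from -0.15 to 0.34. Among 8591 genes with a mean log2 CPM of at least 3, those most like Ppm1k were 2810013P06Rik (r = 0.89), Tmem106b (0.88) and Fastkd1 (0.83), and those most like Bcat2 were Chdh (0.77), Apoc1 (0.75) and Aldh5a1 (0.73).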

How the data were processed

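The authors aligned single-end reads of rRNA-depleted, strand-marked libraries to mm10 with STAR 2.5.2b and assigned them to genes with featureCounts 1.5.2 on GENCODE M13. The deposited values are read counts without normalization, and all 26 columns were used, with groups taken from the sample titles. Genes were kept with filterByExpr (17286 of 50686). Following the study's methods, edgeR (4.0.16, legacy quasi-likelihood, R 4.3.3) was fitted with 1 term per group over 26 mice. TMM scaling is an addition, and p-values were adjusted by Benjamini-Hochberg at 0.05. Log2 CPM used a prior count of 2, and 95% intervals take the t distribution with the degrees of freedom of the test. Gene positions and merged exon lengths came from GENCODE M21. All 73 pairs of mice of one group differed by more than sampling noise (lowest chi-square per gene 4.70). The steps were tested on simulated data.

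The members, lists and motifs were chosen with earlier results of these data known. Named genes were all 10 members, Dld, Slc25a44 and Klf15, the 3 largest and 3 smallest called changes of the other pathway genes with cold in control mice, and the 3 genes most like each of Bcat2, Bckdha and Ppm1k. Those for Bckdha are not reported here. Cold, label and the difference of responses were compared (5 comparisons). Alternatives were DESeq2 1.42.0, other scaling, no filter, the revised method, a fit to the groups compared, and leaving out each mouse. Leaving out 3 outlying libraries, a muscle covariate and other gene lengths were chosen after seeing the data.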

Additional observations from a re-analysis of the deposited data

Results flagged for a closer look

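Of 40 sets of a member and a group tested for a sample far from the others (Dixon's test at 95%, which chance flags in about 1 in 20 groups), 3 stood out. Ppm1k was at 74.4 CPM in mouse 13, labelled FAKO at thermoneutrality, above the other 6 mice. Ppm1k was at 54.2 CPM in control mouse 18 after cold, above the other 4. Mccc2 was at 55.2 CPM in control mouse 21 after cold, below the other 4, and the decrease of Mccc2 in control mice did not pass the test without it.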

How the results depend on the processing

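No fold change of a member that passed a test in any comparison reversed under any alternative. Leaving out 1 mouse in turn kept 1279 member values on their side of the threshold, moved 20 past it and lost 1 (Mccc2), and the other alternatives kept 378 and moved 12 past it. The count of members lower with cold in mice labelled FAKO, 3, was 7 with library size alone and 5 in a fit of only these groups, and ran from 3 to 5 without single mice (5 without mouse 7, 9 or 12). Library size alone moved the median of all genes to -0.14 and -0.34 with cold in control mice and mice labelled FAKO, to 0.13 for the label at thermoneutrality and to -0.15 for the difference, so its values shift by about that much. With it, 2 other pathway genes rose and 15 fell in mice labelled FAKO, 3223 of all genes rose there, and 1 member, Bckdhb, was higher at thermoneutrality (0.49, FDR 0.0298). For the label at thermoneutrality, all genes called higher and lower were 33 and 9 with DESeq2, 34 and 0 with library size alone, and 70 and 63 without 3 outlying libraries. Lower genes there were 1 each without a filter, in the fit of 2 groups and with the muscle covariate, and without single mice the counts ran from 6 to 62 and from 1 to 31. After cold they were 116 and 82 with DESeq2, 4 and 1 with library size alone and 5 and 8 without the 3 libraries, with 8 lower genes unfiltered and 3 in the fit of 2 groups, and ranges of 4 to 62 and 3 to 38. For the difference they were 224 and 242 with DESeq2, 0 and 278 with library size alone and 0 and 27 unfiltered, with ranges of 2 to 126 and 47 to 258. The 1 other pathway gene that DESeq2 called for it was also reached by leaving out mouse 5 or 22 (0 to 1). A fit of only the groups compared was not run for the difference, which uses every group. No paired analysis was run, since each mouse has its own replicate number and the labels used here give no litter or other pairing. Bcat1 is limited by depth, with as few as 21 counts per mouse.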

Other observations

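The genes around Bckdhb were looked at after its values were seen. Within 1 Mb on either side, 10 other genes were tested. Sh3bgrl2, on chromosome 9 from 83548327 to 83638801, was lower in mice labelled FAKO at thermoneutrality, at 12.1 to 14.6 CPM against 16.4 to 21.6 CPM in control mice (log2 fold change -0.49, SE 0.07, FDR 0.000982), and the groups did not overlap. After cold it was at 22.2 to 26.4 against 26.2 to 35.6 CPM (-0.34, SE 0.08, FDR 0.0732). Gm29163, an snRNA gene inside Bckdhb on the other strand, was at 0.427 to 1.12 CPM in mice labelled FAKO after cold against 1.39 to 2.62 CPM in control mice (-1.50, SE 0.28, FDR 0.0172). No other gene of this window was called for the label by edgeR at either temperature.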
